A study of Mus musculus with 6 samples.

Results

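The NF-kB subunits and the feedback inhibitors that NF-kB induces were examined in mouse liver 12 h after surgical removal of 70% of the organ, a standard model of liver regeneration called partial hepatectomy. The list holds 10 genes: the subunits Nfkb1, Nfkb2, Rel, Rela and Relb, the IkB-family proteins Bcl3, Nfkbia and Nfkbiz, and the regulators Tnfaip3 and Birc3. Of these, 9 were measured here on 13 probe sets, out of 17097 genes in all, and Nfkb1 was not analysed here. The brightest probe set on average over the 6 arrays stands for each gene, and any further probe sets serve as a check. The libraries labelled DeltaKlf6 came from 3 mice that the labels describe as carrying a hepatocyte-specific knockout of the zinc-finger transcription factor Klf6, and the wildtype libraries came from 3 mice that served as controls. The animals of both groups were C57Bl/6, per the labels, and 1 array was run on total liver RNA of each; the whole study had 6 animals per group. No age of the mice and no promoter driving the deletion is stated in the labels, and all 6 livers were operated on, so the values describe regenerating liver only. Values are log2 expression values after robust multi-array averaging (RMA), in which 1 unit is a doubling of signal.

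NF-kB is a family of dimeric transcription factors held in the cytoplasm by IkB proteins. Signals through the tumour necrosis factor, interleukin and Toll-like receptors activate the IkB kinase complex, IkB is degraded, and the dimers enter the nucleus. Among the genes they induce are their own inhibitors, Nfkbia and Tnfaip3, so the level of these transcripts is often read as a trace of recent pathway activity. In liver the pathway is active in hepatocytes, Kupffer cells and endothelium, and it takes part in the priming phase soon after hepatectomy. Because NF-kB is controlled largely through protein location, transcript levels do not measure its activity.

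Promoters are shown for Nfkbia and Tnfaip3, whose brightest probe sets moved alike over the libraries. The other Tnfaip3 probe set, given below, did not. They are also shown for Bcl3, Nfkb2 and Birc3, each of which left the wildtype range with another pattern. Tnfaip3 has a further listed start, whose promoter is not shown. The sequences are from RefSeq on the plus or minus strand of GRCm38.p6, each reading 5′ to 3′ from 250 bases before the annotated start to 50 after it. Capitals mark matches to the kB-type motif GGGANNNNCC on either strand. The promoters lie at chr12:55492598-55492897 (minus strand) for Nfkbia, chr10:19015361-19015660 (minus) for Tnfaip3, chr7:19822706-19823005 (minus) for Bcl3, chr19:46304487-46304786 (plus) for Nfkb2, the first of its 3 listed starts, and chr9:7873121-7873420 (minus) for Birc3.
Nfkbia: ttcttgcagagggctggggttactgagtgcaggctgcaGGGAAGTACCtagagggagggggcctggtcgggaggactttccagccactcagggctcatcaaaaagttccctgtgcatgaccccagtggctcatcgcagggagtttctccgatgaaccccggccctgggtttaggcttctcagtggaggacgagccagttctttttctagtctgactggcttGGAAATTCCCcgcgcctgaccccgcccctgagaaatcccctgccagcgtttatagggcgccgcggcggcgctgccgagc
Tnfaip3: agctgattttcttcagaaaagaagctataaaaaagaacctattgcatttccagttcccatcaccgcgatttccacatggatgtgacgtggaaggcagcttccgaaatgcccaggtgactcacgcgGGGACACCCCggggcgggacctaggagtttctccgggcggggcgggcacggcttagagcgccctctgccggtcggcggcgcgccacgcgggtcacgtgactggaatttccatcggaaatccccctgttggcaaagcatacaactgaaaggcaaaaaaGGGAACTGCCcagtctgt
Bcl3: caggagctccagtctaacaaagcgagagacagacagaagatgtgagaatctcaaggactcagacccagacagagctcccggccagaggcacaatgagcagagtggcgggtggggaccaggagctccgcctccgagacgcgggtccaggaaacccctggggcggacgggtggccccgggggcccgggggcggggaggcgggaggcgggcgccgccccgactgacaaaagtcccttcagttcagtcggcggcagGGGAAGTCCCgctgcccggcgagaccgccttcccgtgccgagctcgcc
Nfkb2: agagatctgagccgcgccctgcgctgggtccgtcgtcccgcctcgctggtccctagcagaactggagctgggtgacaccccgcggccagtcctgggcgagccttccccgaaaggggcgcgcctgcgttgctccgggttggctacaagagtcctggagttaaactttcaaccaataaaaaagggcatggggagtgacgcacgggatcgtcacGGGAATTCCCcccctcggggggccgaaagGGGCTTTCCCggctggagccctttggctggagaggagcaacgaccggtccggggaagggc
Birc3: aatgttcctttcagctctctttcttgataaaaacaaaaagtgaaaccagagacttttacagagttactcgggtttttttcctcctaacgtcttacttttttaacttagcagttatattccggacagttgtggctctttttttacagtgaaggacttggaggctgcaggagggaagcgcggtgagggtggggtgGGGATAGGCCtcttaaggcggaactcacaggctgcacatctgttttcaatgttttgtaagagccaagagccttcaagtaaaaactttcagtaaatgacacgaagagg

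A promoter entry was found for 7 of the measured genes, all but Relb and Nfkbiz, and 7 of these 7 held the motif GGGANNNNCC in at least 1 listed promoter. Of all 27025 genes with a promoter entry 22.9% held it, and of all 32851 promoters 20.7%. A stricter form, GGGANNTTCC on either strand, every match of which also matches the first motif, was found in the promoters of Nfkb2 and Nfkbia and in 1.63% of all genes. In Nfkbia this is the match GGAAATTCCC, which begins 29 bases before the start. In Nfkb2 the stricter matches lie at the other listed starts, not in the promoter shown, which holds the wider matches GGGAATTCCC and GGGCTTTCCC, beginning 39 and 10 bases before the start. The GC box GGGCGG, searched on either strand because KLF-family factors bind GC-rich sites, was in 6 of the 7 genes, all but Birc3, and in 38.2% of all genes, with no overlap with a kB-type match in the members. These matches describe letters and do not show binding.

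The transcript of Klf6 was high in 1 library labelled as its knockout, so each direction below is between libraries as labelled. Its brightest probe set was at 7.03, 4.61 and 3.15 in libraries labelled DeltaKlf6 1, 2 and 3, against 5.09, 4.43 and 5.20 in wildtype 1, 2 and 3. The library labelled DeltaKlf6 1 was above every wildtype array on all 3 Klf6 probe sets, and the position of these probe sets relative to the deleted part is not known here. The group difference on this probe set was 0.02 (SE 0.84, limma adjusted p = 0.999) with all arrays; it was -1.03 (SE 0.46) leaving out DeltaKlf6 1, 0.18 (SE 0.97) leaving out DeltaKlf6 2 and 0.91 (SE 0.65) leaving out DeltaKlf6 3. Across genes the wildtype arrays correlated with each other at 0.982 to 0.983 and the libraries labelled DeltaKlf6 at 0.946 to 0.964, and DeltaKlf6 2 was as close as 0.981 to wildtype 2. The 3′-minus-5′ signal of Gapdh, a control for RNA integrity, was 3.47, 3.45 and 4.83 in libraries labelled DeltaKlf6 1, 2 and 3, and wildtype arrays lay between 4.06 and 4.43. For actin, a further such control, it was 4.22, 3.998 and 5.05 in DeltaKlf6 1, 2 and 3, and between 4.86 and 5.39 in wildtype. These are log2 units, so for both controls the 3′ signal was far above the 5′ signal in all 6 arrays. The upper quartile of all values was 5.08 in DeltaKlf6 3 and 5.50 to 5.63 in the other 5 arrays. Of the hepatocyte markers, Alb and Serpina1c were bright in every array. Apob was far dimmer, with a mean of 4.37 in DeltaKlf6 and 4.24 in wildtype. The log2 of the summed signal of 9 of 9 hepatocyte markers was 15.63 to 15.85 in DeltaKlf6 libraries and 15.70 to 15.74 in wildtype.

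None of the 9 genes differed between the groups by the test. With limma fitted over all genes, 0 of 9 passed an adjusted p of 0.05, where 0% of all genes did, and 0 of 9 passed an unadjusted p of 0.05, where 3.69% of all genes did. The groups overlapped for all 9, while 9.32% of all genes had groups that did not overlap. By group mean 4 of the genes were higher in DeltaKlf6 (48.4% of all genes) and 5 lower (51.6%), with a median log2 difference of -0.06 beside -0.01 over all genes. The 95% interval of the difference spanned 0 for 9 of 9. The lowest limit was that of Nfkbiz, 0.49-fold to 2.57-fold, and the highest that of Nfkb2, 0.79-fold to 2.59-fold. For Rela the interval was 0.70-fold to 1.51-fold. For each gene, changes inside its own interval remain within the error. In the exact two-sided permutation test of 3 against 3 arrays the smallest p that the 20 splits allow is 0.10, and the lowest of any member was 0.40, for Tnfaip3.

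**Figure D1:**
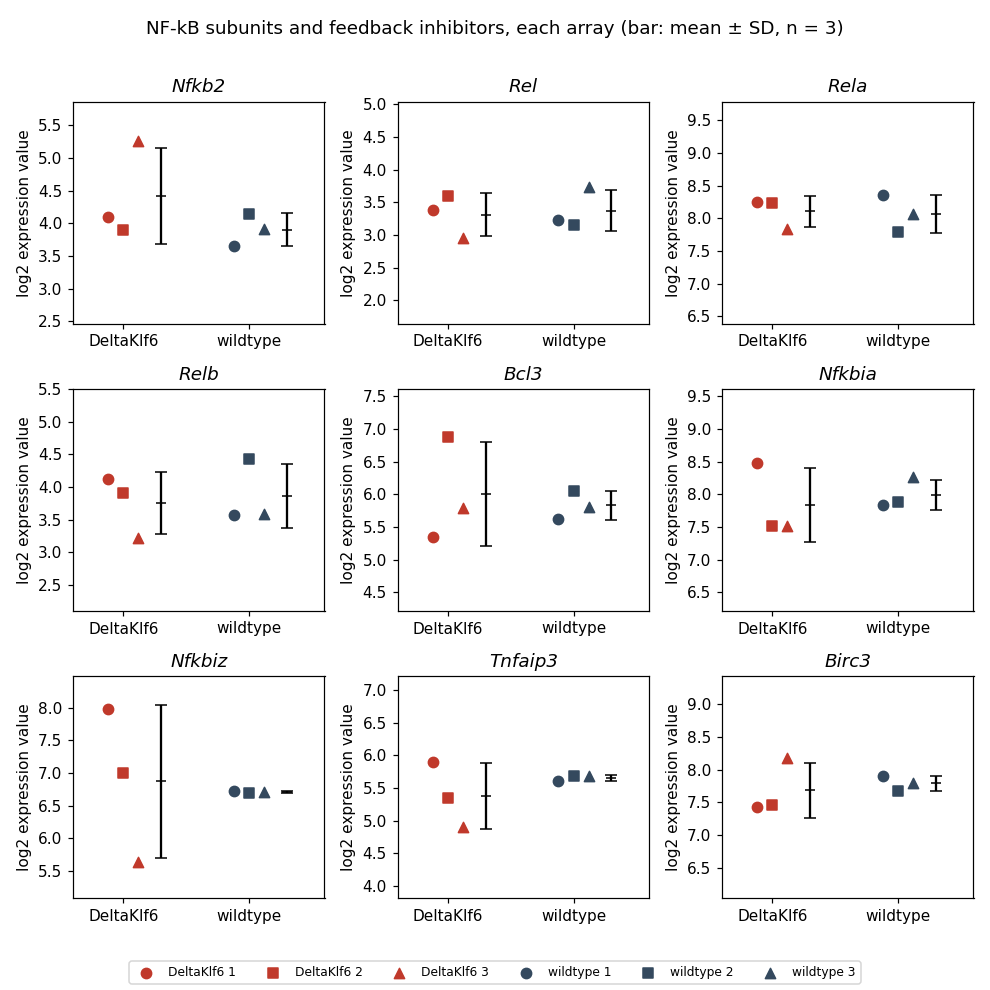
Log2 expression value of each gene in each array, DeltaKlf6 in red and wildtype in blue, with marker shape for the replicate number and a bar for the mean ± SD (n = 3 per group). Every panel spans the same number of log2 units. The groups overlap in all 9 panels, and the DeltaKlf6 points of Nfkbiz spread from 5.64 to 7.98 around wildtype points between 6.69 and 6.72.

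Among the subunits with a transactivation domain, Rela, the p65 protein of the main dimer, was at 8.25, 8.24 and 7.84 in libraries labelled DeltaKlf6 1, 2 and 3, against 8.36, 7.79 and 8.06 in wildtype. No DeltaKlf6 value lay outside the wildtype range. The difference of 0.04 (SE 0.24, 95% interval -0.52 to 0.60, limma adjusted p = 0.997) was the smallest of the members. Rel, the c-Rel subunit best known from lymphocytes, was at 3.38, 3.60 and 2.95 in DeltaKlf6, against 3.23, 3.16 and 3.74 in wildtype. Only the library labelled DeltaKlf6 3 lay below the wildtype range, and the difference was -0.06 (SE 0.27, limma adjusted p = 0.996). Relb, which pairs with the Nfkb2 product in the non-canonical branch, was at 4.12, 3.91 and 3.22 in DeltaKlf6, against 3.57, 4.43 and 3.58 in wildtype. Again DeltaKlf6 3 alone fell outside the range, on the lower side, and the difference was -0.11 (SE 0.34, limma adjusted p = 0.995).

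Nfkb2 encodes p100, which restrains Relb until it is processed to p52. It was at 4.10, 3.90 and 5.27 in libraries labelled DeltaKlf6 1, 2 and 3, against 3.65, 4.14 and 3.92 in wildtype. The first pair lay inside the wildtype range and DeltaKlf6 3 lay 1.36 above the wildtype mean. The difference of 0.52 (SE 0.37, 95% interval -0.34 to 1.37, limma adjusted p = 0.992) was the largest of the members and rested on that library: without it the difference was 0.095. Rel, Relb and Nfkb2 were dim, with means below the median of all gene means, 4.38, and detection was not assessed, so their values may hold much background signal.

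Nfkbia encodes IkB-alpha, the inhibitor that NF-kB resynthesises to end its own response. It was at 8.49, 7.51 and 7.52 in libraries labelled DeltaKlf6 1, 2 and 3, against 7.84, 7.88 and 8.26 in wildtype. DeltaKlf6 1 was above every wildtype array and the other two were below every one. The difference was -0.16 (SE 0.31, 95% interval -0.88 to 0.56, limma adjusted p = 0.993), and leaving out DeltaKlf6 1 it was -0.48 (unadjusted p = 0.0903, limma adjusted p = 0.984). Leaving out DeltaKlf6 2 instead it was 0.008, and leaving out DeltaKlf6 3 it was 0.003.

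Tnfaip3 encodes A20, a ubiquitin-editing enzyme that shuts off signalling upstream of the IkB kinase. It was at 5.90, 5.34 and 4.90 in libraries labelled DeltaKlf6 1, 2 and 3, against 5.60, 5.69 and 5.68 in wildtype. As with Nfkbia, DeltaKlf6 1 lay above and DeltaKlf6 2 and 3 below every wildtype array. The difference was -0.28 (SE 0.28, 95% interval -0.92 to 0.37, limma adjusted p = 0.992), and leaving out DeltaKlf6 1 it was -0.54 (unadjusted p = 0.0636, limma adjusted p = 0.984). Leaving out DeltaKlf6 2 instead it was -0.26, and leaving out DeltaKlf6 3 it was -0.04. The other Tnfaip3 probe set was dim and had the opposite sign, at 3.30, 2.95 and 3.32 in DeltaKlf6, against 2.90, 3.03 and 2.86 in wildtype.

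Nfkbiz encodes IkB-zeta, a nuclear IkB-family protein that assists NF-kB at a subset of its targets. It was at 7.98, 7.00 and 5.64 in libraries labelled DeltaKlf6 1, 2 and 3, against 6.72, 6.69 and 6.70 in wildtype. None of the DeltaKlf6 values lay within the narrow wildtype range: DeltaKlf6 1 and 2 were above it and DeltaKlf6 3 was below it. The difference of group means was 0.17 (SE 0.52, 95% interval -1.03 to 1.36, limma adjusted p = 0.995). Leaving out DeltaKlf6 1 it was -0.39 (adjusted p = 0.985), and without DeltaKlf6 3 it was 0.78 (unadjusted p = 0.038, limma adjusted p = 0.532). In the fit without DeltaKlf6 3, 1546 of all 17097 genes had an unadjusted p under 0.05. One other Nfkbiz probe set kept the order of the DeltaKlf6 libraries at a dim level, 3.67, 3.25 and 2.67 in DeltaKlf6, against 3.65, 3.50 and 3.54 in wildtype, with a difference of -0.37. The third was at 3.69, 3.56 and 3.48 in DeltaKlf6, against 3.65, 3.13 and 3.59 in wildtype, a difference of 0.12.

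Bcl3, another nuclear IkB-family protein, which binds p50 and p52 dimers, was at 5.34, 6.88 and 5.79 in libraries labelled DeltaKlf6 1, 2 and 3, against 5.62, 6.06 and 5.81 in wildtype. DeltaKlf6 1 lay below the wildtype range, DeltaKlf6 2 above it and DeltaKlf6 3 inside it. The difference was 0.18 (SE 0.38, limma adjusted p = 0.994), and without DeltaKlf6 2 it was -0.26. In the same library, DeltaKlf6 2, 11 of 12 Kupffer cell and macrophage markers were above every wildtype array, as were 28.0% of all genes, and the log2 of their summed signal was 11.81, 12.42 and 11.88 in DeltaKlf6 1, 2 and 3, and between 11.60 and 11.83 in wildtype. The part of these markers in the Bcl3 values was not tested. In whole liver, a change in the number of cells of a type and a change in RNA per cell cannot be told apart.

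Birc3 encodes cIAP2, a ubiquitin ligase of the tumour necrosis factor receptor complex that NF-kB induces. It was at 7.43, 7.46 and 8.18 in libraries labelled DeltaKlf6 1, 2 and 3, against 7.90, 7.68 and 7.80 in wildtype. DeltaKlf6 1 and 2 lay below the wildtype range and DeltaKlf6 3 above it, the reverse of Nfkbiz. The difference was -0.11 (SE 0.26, limma adjusted p = 0.995) and -0.35 without DeltaKlf6 3 (unadjusted p = 0.125). Without DeltaKlf6 1 it was 0.02, and without DeltaKlf6 2 it was 0.009. The other Birc3 probe set was dim and had a difference of -0.23.

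**Figure D2:**
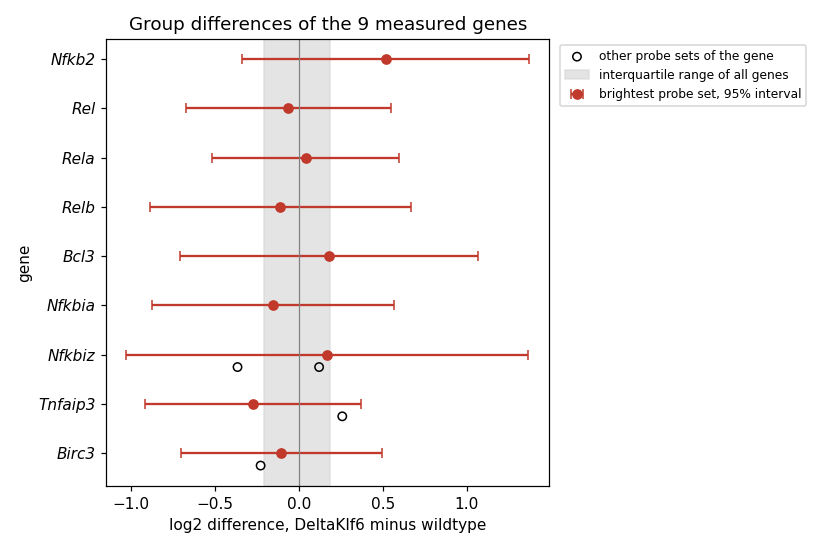
Log2 difference, DeltaKlf6 minus wildtype, of each gene (red, brightest probe set, with the 95% interval from limma) and of its other probe sets (open circles); the grey band is the interquartile range of all 17097 genes. All 9 intervals cross 0, with estimates between -0.28 for Tnfaip3 and 0.52 for Nfkb2, and Nfkbiz and Tnfaip3 have probe sets on both sides of 0.

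The SD of the 3 arrays was larger in DeltaKlf6 than in wildtype for 7 of 9 genes, and for 68.1% of all genes. The median SD of the members was 0.50 in DeltaKlf6 and 0.23 in wildtype, beside 0.35 in DeltaKlf6 and 0.24 in wildtype over all genes. Nfkbiz had an SD of 1.18 in DeltaKlf6 and 0.015 in wildtype, and 0.0526% of all genes had a ratio of these SDs as large. For Tnfaip3 the SD was 0.50 in DeltaKlf6 and 0.048 in wildtype, a ratio reached by 2.44% of genes. With 3 arrays a very small wildtype SD also makes such a ratio large, and the spread was not tested.

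Nfkbia, Nfkbiz and Tnfaip3 were above every wildtype array in the library labelled DeltaKlf6 1 and below every one in DeltaKlf6 3. This was so for 3 of 9 members and for 11.0% of all genes, a pattern noticed after the values were seen and not tested. The brightest Klf6 probe set lay above and below the wildtype range in the same libraries. On another Klf6 probe set DeltaKlf6 3, at 3.74, was inside the wildtype range of 3.73 to 4.44. On the third it was at 2.83, below the wildtype range of 3.41 to 4.03. The dim Tnfaip3 probe set was above every wildtype array in DeltaKlf6 3, at 3.32. In DeltaKlf6 1 alone 3 members were above (29.0% of all genes) and 2, Bcl3 and Birc3, below (30.9%). In DeltaKlf6 2 the numbers were 2 above (28.0%) and 3 below (27.6%), and in DeltaKlf6 3 they were 2 above (27.2%) and 5 below (35.1%). The median of the members relative to the wildtype mean was 0.19, 0.05 and -0.42 in DeltaKlf6 1, 2 and 3, against -0.02, -0.01 and -0.06 over all genes. In DeltaKlf6 3, where 5 members were low, the 3′-minus-5′ signal of Gapdh was the highest of the 6 arrays, 4.83. That of actin, 5.05, was inside the wildtype range. The log2 summed signal of stellate cell markers in this library was 9.63, below the 10.21 to 10.57 of wildtype. The hepatocyte sum, 15.63, was also below the 15.70 to 15.74 of wildtype, and the endothelial sum, 10.94, below 10.97 to 11.09. The macrophage sum, 11.88, was above the 11.60 to 11.83 of wildtype, and the neutrophil sum, 9.18, above 8.20 to 9.16. This library was inside the wildtype range in the lymphocyte and cholangiocyte sums. Its upper quartile of all values was 5.08, against 5.50 to 5.63 in the other 5 arrays. The weight that limma gave it was the lowest of the 6, 0.378. The part of these features in the result was not tested.

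Leaving out 1 library changed which members separated the groups, as follows directly from the array values given above. Without the library labelled DeltaKlf6 1, Nfkbia and Tnfaip3 were lower in DeltaKlf6 with no overlap, 2 of 9 members where 18.1% of all genes did not overlap. Without DeltaKlf6 3, Nfkbiz was higher and Birc3 lower with no overlap, 2 of 9 where the share of all genes was 25.3%. The count was 0 without DeltaKlf6 2 (22.3% of all genes) and without wildtype 1 (16.6%), 2 (17.8%) or 3 (16.4%). No member passed the adjusted threshold in any of these fits.

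**Figure D3:**
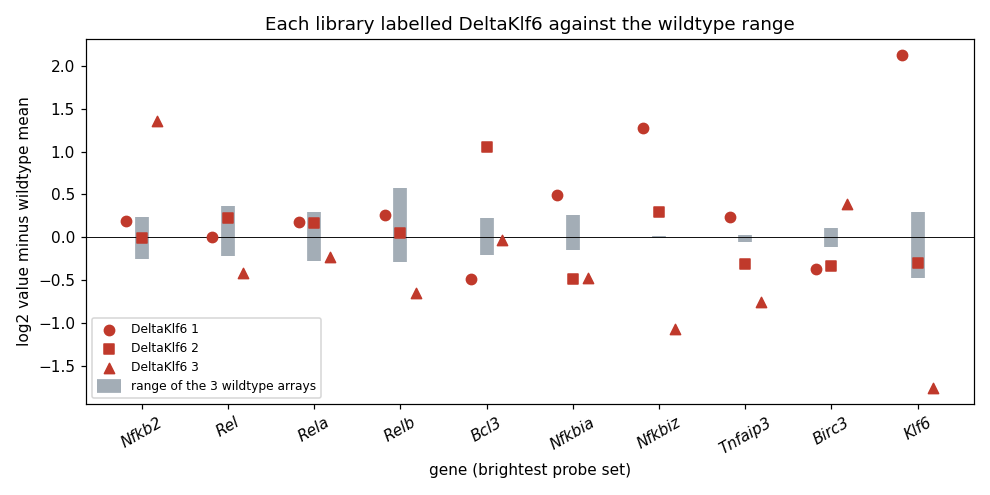
Log2 value of each library labelled DeltaKlf6 (red, marker shape for the library) minus the wildtype mean. Points are the brightest probe set of each of the 9 genes and Klf6, and blue-grey bars span the 3 wildtype arrays. The circles of DeltaKlf6 1 lie above the bars and the triangles of DeltaKlf6 3 below them for Nfkbia, Nfkbiz, Tnfaip3 and Klf6, with Klf6 at 2.12 and -1.75, while Nfkb2 and Birc3 have DeltaKlf6 3 above the bar.

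The 3 members with the widest range over the arrays were Nfkbiz (2.34 log2 units), Nfkb2 (1.61) and Bcl3 (1.54). Among genes at or above the median of gene means, the patterns most like Nfkbiz over the 6 arrays were those of Trib1 (r = 0.993), Pdcl (r = 0.993) and Cryl1 (r = 0.992). Trib1 was at 6.06, 5.03 and 3.32 in libraries labelled DeltaKlf6 1, 2 and 3, against 4.74, 4.73 and 4.82 in wildtype. Most like Nfkb2 were Atp5md (r = 0.988), Frat1 (r = 0.972) and Pisd (r = 0.971), and most like Bcl3 were Copz1 (r = 0.981), Gpr19 (r = 0.980) and Ftsj1 (r = 0.980). These are the highest of 8548 or 8549 values each over 6 arrays and serve as a description only.

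Genes upstream and downstream were read from the same fit, in lists by role, and 0 genes of any list passed the adjusted threshold (0% of all genes). By group mean 48.4% of all genes were higher in DeltaKlf6 and 51.6% lower. Of 15 measured receptors and adaptors 9 were higher and 6 lower in DeltaKlf6, with a median log2 difference of 0.05. The groups did not overlap for 1 of 15 (9.32% of all genes). Tirap, an adaptor of Toll-like receptors, was at 6.87, 6.98 and 6.57 in libraries labelled DeltaKlf6, against 7.12, 7.30 and 7.04 in wildtype, so that the groups did not overlap (difference -0.34, SE 0.21, limma adjusted p = 0.992). Tnfrsf1a, the main receptor of tumour necrosis factor on hepatocytes, differed by 0.38 (SE 0.27). Traf6, a ubiquitin ligase of interleukin and Toll-like receptor signalling, differed by 0.53 (SE 0.43), with 6.23 in DeltaKlf6 1 and all other arrays between 4.55 and 4.72.

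Of 13 kinase-complex and ubiquitin-ligase genes 5 were higher and 8 lower, with a median of -0.06. The groups did not overlap for 1 of 13 (9.32% of all genes). Ikbkg encodes NEMO, the regulatory subunit of the IkB kinase. It was at 8.46, 8.58 and 8.62 in libraries labelled DeltaKlf6 1, 2 and 3, against 9.24, 8.92 and 8.84 in wildtype. Its groups did not overlap, and its values in DeltaKlf6 lay close together (difference -0.45, SE 0.21, unadjusted p = 0.065, limma adjusted p = 0.992). Map3k14, the kinase of the non-canonical branch, differed by -0.29 (SE 0.22) at a dim level, and Birc2, the paralogue of Birc3, by -0.25 (SE 0.22).

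Of 16 other IkB proteins and negative regulators 9 were higher and 7 lower, with a median of 0.07. The groups did not overlap for 0 of 16 (9.32% of all genes). Nfkbib, encoding IkB-beta, was at 7.52, 6.08 and 5.43 in libraries labelled DeltaKlf6 1, 2 and 3, against 5.14, 6.05 and 5.95 in wildtype. It was highest in DeltaKlf6 1, as Nfkbia was (difference 0.64, SE 0.52, limma adjusted p = 0.992). Nfkbie, encoding IkB-epsilon, differed by 0.13 (SE 0.21) and Rnf11, a partner of A20, by -0.18 (SE 0.28).

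Of 26 NF-kB target genes 15 were higher and 11 lower, with a median of 0.11. The groups did not overlap for 1 of 26 (9.32% of all genes). Vcam1, an adhesion molecule of activated endothelium, was at 5.93, 4.24 and 5.66 in libraries labelled DeltaKlf6 1, 2 and 3, against 4.31, 4.37 and 4.25 in wildtype. It was high in DeltaKlf6 1 and 3 and just below the wildtype range in DeltaKlf6 2 (difference 0.97, SE 0.42, unadjusted p = 0.0483, limma adjusted p = 0.992). It was the only one of the 26 with an unadjusted p under 0.05, against 3.69% of all genes. Traf1, a signalling adaptor, differed by -0.58 (SE 0.32) with groups that did not overlap, at a dim level, and Il1b, the cytokine interleukin-1 beta, by -0.43 (SE 0.25). In DeltaKlf6 1, 10 of the 26 were above every wildtype array (29.0% of all genes) and 9 below (30.9%), and in DeltaKlf6 3 the counts were 10 above (27.2%) and 5 below (35.1%).

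**Figure D4:**
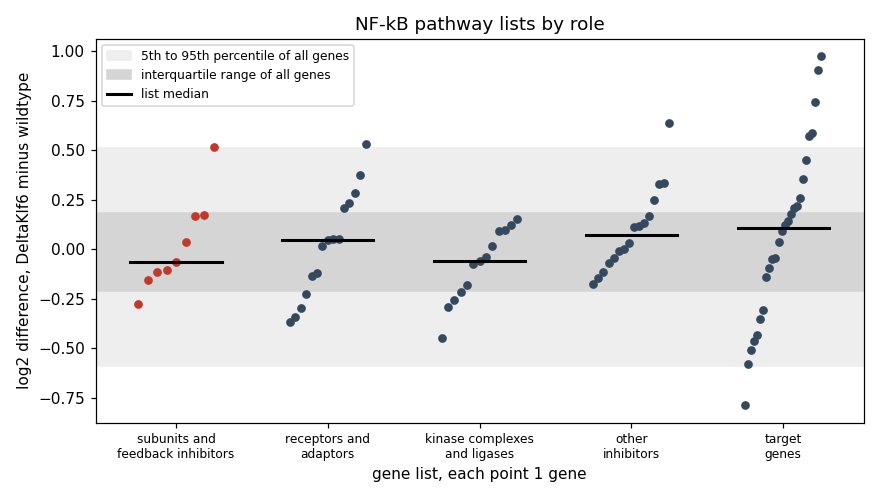
Log2 difference, DeltaKlf6 minus wildtype, of each measured gene in 5 lists by role, with the list median as a black line and grey bands for the interquartile range and for the 5th to 95th percentile of all genes. The list medians lie between -0.06 and 0.11, and the target genes spread most widely, up to Vcam1 at 0.97.

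Markers of other liver cells were at these levels beside the results. The log2 of the summed signal of 10 sinusoidal endothelial markers was 10.81 to 10.99 in DeltaKlf6 and 10.97 to 11.09 in wildtype, and that of 9 neutrophil markers was 8.11 to 9.18 in DeltaKlf6 and 8.20 to 9.16 in wildtype. For 9 lymphocyte markers it was 6.58 to 6.68 in DeltaKlf6 and 6.56 to 6.86 in wildtype. That of 10 stellate cell markers was 9.63 to 10.88 in DeltaKlf6 and 10.21 to 10.57 in wildtype, and that of 5 cholangiocyte markers was 5.42 to 5.91 in DeltaKlf6 and 5.24 to 5.87 in wildtype. The brightest markers of these lists were Clec4g, S100a8, Cd3e, Dcn and Epcam, in that order, and Cd5l was that of the macrophage list. Array values have no 0, so an absent marker cannot be told from background. A sum rests mostly on the brightest markers of its list. By group mean 7 of 10 endothelial markers were lower in DeltaKlf6 (51.6% of all genes), with a median of -0.06. Of 12 macrophage markers 9 were higher (48.4%), with a median of 0.37. At an unadjusted limma p under 0.05, 1 endothelial marker was lower and 1 macrophage marker higher (3.69% of all genes in either direction). No marker passed the adjusted threshold.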

How the data were processed

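Total RNA of 6 livers, 3 DeltaKlf6 and 3 wildtype, was measured on 1-colour Affymetrix arrays, 1 per animal. The deposited values are log2 expression values that the authors made, per the submitters' processing notes, with RMA in version 1.2.1 of Affymetrix Expression Console; the log base was inferred from the highest value, 13.9. The genome build is not given in the sources used here. Of 45141 probe sets, 28898 had 1 gene in the platform annotation, 551 several and 15692 none here. Symbols were checked against RefSeq (GRCm38.p6) by Entrez number for 28689 probe sets, which changed 0. Each gene was represented by its brightest probe set, giving 17097 genes. The groups were compared in limma 3.58.1 (R 4.3.3, statmod 1.5.0, lmFit, eBayes, two-sided, Benjamini-Hochberg over all genes, threshold 0.05). The calculation was run on simulated data with equal spread in both groups, and had to find only very large added shifts. That check does not show whether differences as small as those of the members would be found. The number of arrays limits the precision, and p-values measure the spread between these animals.

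The members and gene lists were chosen with earlier results of these data known, so no list was tested. Named are all members, Klf6, the 3 genes of smallest unadjusted p per pathway list, the brightest gene of each cell type list, and the 3 genes of most similar pattern for each of the 3 members of widest range. Trib1 values, Alb and Apob were singled out after the values were seen. Motifs were searched on both strands of 250 bases before to 50 after each RefSeq start. The labels give only a replicate number, so whether same-numbered arrays were paired is not known, and the main fit treats them as unpaired. The deviations of same-numbered arrays correlated at -0.00494, 0.262 and 0.0837, and those of arrays with other numbers at -0.174 to 0.0858. These values cannot decide the pairing. Alternatives were the mean of probe sets, every probe set tested, shared probe sets or dim genes left out, renormalization, variance trend, robust variances, array weights, a replicate block, a minimum fold of 1.5, an unmoderated test and each array left out.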

Additional observations from a re-analysis of the deposited data

How the results depend on the processing

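Under 18 alternatives 0 of the measured members passed the adjusted threshold; the lowest adjusted p of any member was 0.532, for Nfkbiz without the library labelled DeltaKlf6 3. The count of all genes past it was 0 in each, with 631 at an unadjusted p under 0.05, 1546 without DeltaKlf6 3, 1165 without DeltaKlf6 2, 909 with array weights, 388 without wildtype 1, 379 without wildtype 3, and 38 against a minimum fold of 1.5. Of 157 recomputed member differences 141 kept their sign and 16 changed it, 13 of these when an array was left out. Many of the 157 could not change. The variance trend, robust variances, replicate block, minimum fold, unmoderated test and every probe set tested return the same difference by construction. So does leaving out dim genes, for the members still measured. The count of 141 therefore does not measure how stable the signs are. With the mean of its probe sets Nfkbiz was at -0.0275 and Tnfaip3 at -0.0101, against -0.28 with its brightest probe set, and with array weights Rel was at 0.00609 and Relb at 0.0125. Leaving out each array in turn gave a range of -0.26 to 0.51 for Bcl3, -0.35 to 0.0245 for Birc3, 0.09 to 0.78 for Nfkb2, -0.48 to 0.00841 for Nfkbia, -0.39 to 0.78 for Nfkbiz, -0.21 to 0.12 for Rel, -0.10 to 0.18 for Rela, -0.30 to 0.17 for Relb, -0.54 to -0.04 for Tnfaip3 and -0.10 to 0.11 for the median of the members. The count of members with non-overlapping groups ranged from 0 to 2, and 2 was reached without DeltaKlf6 1 and without DeltaKlf6 3. Shared probe sets here are those whose name ends in _a_at, _s_at or _x_at, also where only 1 gene is annotated. Without them Rela and Nfkb2 could not be measured, and Birc3 was at -0.23, on its dim probe set. Without dim genes Rel, Relb and Nfkb2 could not be measured. With the replicate block the count of genes past the threshold was 0, with 703 at an unadjusted p under 0.05, and the block changed no call. The labels state no pairing of same-numbered arrays beyond the number. Of the 3 libraries labelled DeltaKlf6 the deviations of DeltaKlf6 2 correlated best with its own number, at 0.26. Rel, Relb and Nfkb2 are limited by dim signal.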
